A study of Mus musculus with 4 samples.

Results

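The complement genes C1qa, C1qb, C1qc, C3, C4b, C4bp, Cfb, Serping1 and C3ar1 were followed across astrocyte cultures from 4 brain regions. A member was measured by the probe sets annotated to it and to no other gene. Of the 9 members 7 had such probe sets, 10 in all, out of 12393 genes so represented on the array. C3 and C4b had none and were not analysed here. The cultures were primary astrocytes from the subventricular zone (SVZ), the ventral mesencephalon (VM, the midbrain floor), the olfactory bulb (OB) and the hippocampus of CD-1 mice, an outbred stock, at postnatal day 3. Tissue was pooled from littermate pups, whose number the design text gives in 2 different ways. All 4 cultures were grown in medium with 10% fetal bovine serum, shaken at 200 rpm to enrich astroglia and replated as monolayers, and none received another treatment. Each region has 1 array of 22690 probe sets, so differences between regions are without replication and were not tested.

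Complement is a cascade of plasma and tissue proteins that tags targets for removal. The classical pathway starts when C1q, assembled from the chains encoded by C1qa, C1qb and C1qc, binds its target and activates the attached proteases C1r and C1s. These cleave C4 and C2, and the lectin pathway reaches the same step through the MASP proteases. The alternative pathway uses factor B, encoded by Cfb. The C1 inhibitor Serping1 blocks C1r, C1s and the MASPs, and C4b-binding protein, C4bp, restrains the C4b-containing convertase. C3ar1 is the receptor for the C3a fragment. In brain, C1q is known to come mainly from microglia, while several other components can be made by astrocytes and fibroblasts.

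Values are deposited signals on a linear scale. A signal is called above the floor when it exceeds 122.1, the median of all signals, which takes the place of detection calls. All 7 members with probe sets were above the floor on at least 1 array, as were 7987 of the 12393 genes. A fold against a value at or below the floor is computed against the floor and given as "at least". A gene is called higher in a region when its signal was at least 2-fold above every other region, and lower when at least 2-fold below. For genes shared by several regions, the 4 values were put in order and the widest step between neighbours was taken, counted when it was at least 2-fold. Where a gene had several probe sets, that with the highest mean log2 signal stood for it. Where a gene had a pair of probe sets with every signal above the floor, the pair was compared in each difference between arrays. Their disagreement gave a probe-set SD of 0.22 (log2, 1977 genes). It leaves out the spread between cultures and errors that probe sets of an array share, such as labelling and scaling.

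The 4 arrays had 2% trimmed means between 400.1 and 400.2. Of 9 astrocyte markers 7 were above the floor in SVZ, 7 in VM, 8 in OB and 8 in the hippocampus, at uneven signals. The intermediate filament gene Gfap ranged from 1007 in VM to 10027 in the hippocampus, and the folate enzyme Aldh1l1, by its stronger probe set, from 311 in OB to 5106 in SVZ. Gja1 ran from 2505 in SVZ to 9010 in OB. The glutamate transporter gene Slc1a2 was below the floor on all arrays, and S100b was below it in SVZ (33.6) and VM (73). Markers of other cell types were also present. Of 15 microglia and macrophage markers, 15 were above the floor in OB and 15 in the hippocampus, against 3 in SVZ (Cd14, Cd68 and Lyz2) and 1 in VM (Cd14). All 13 fibroblast and meningeal markers were above the floor in OB and the hippocampus, with 12 in VM and 7 in SVZ. Of the endothelial, oligodendrocyte and neuronal markers at most 2 of a list were above the floor on any array. Some of these signals were strong. The oligodendrocyte list's Olig1 read 3805 in SVZ and 2700 in the hippocampus, while its Sox10 read only 355 in OB. The neuronal list's Stmn2 read 3465 in SVZ and 1331 in VM.

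The C1q chains were above the floor in 2 of the 4 cultures and far below it in the others. C1qa had a signal of 3325 in OB and 3527 in the hippocampus, but 1.5 in both SVZ and VM. The step was at least 27.2-fold. This and the steps of the other chains and C3ar1 are lower bounds set by the floor, so they cannot be ranked. C1qc read 2054 in OB and 1913 in the hippocampus, against 0.70 in SVZ and 2.4 in VM, a step of at least 15.7-fold. C1qb read 1416 and 1990 in OB and hippocampus, against 16.1 and 2.7, a step of at least 11.6-fold. The high and low cultures are named from these same values, with 1 array each.

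The other probe sets of C1qb had the same split. One read 751 and 1248 in OB and hippocampus with 4.1 and 0.70 in SVZ and VM. The third read 407 and 580 with 20.4 and 19.6. Over the 5 probe sets of the C1q chains, no signal in SVZ or VM exceeded 20.4. The exact values there have no order, since all lie below the floor.

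C3ar1, the C3a receptor of myeloid cells, had the same arrangement. Its representing probe set read 679 in OB and 742 in the hippocampus, against 29.2 in SVZ and 31.7 in VM. The step was at least 5.6-fold. Its other probe set read 509, 737, 11.8 and 27.5 in the same order of regions. Both probe sets therefore placed OB and the hippocampus above the floor and the others below it.

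In all, 4 of the 7 measured members (C1qa, C1qb, C1qc and C3ar1) had OB and the hippocampus above a widest step of at least 2-fold. Over all genes above the floor, 1.44% had this arrangement (115 genes). None of the 4 was called higher in a single region, because both high cultures held them at like signals. The plot of member signals shows these 4 genes beside C4bp, Cfb and Serping1, whose order of regions differed.

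**Figure D1:**
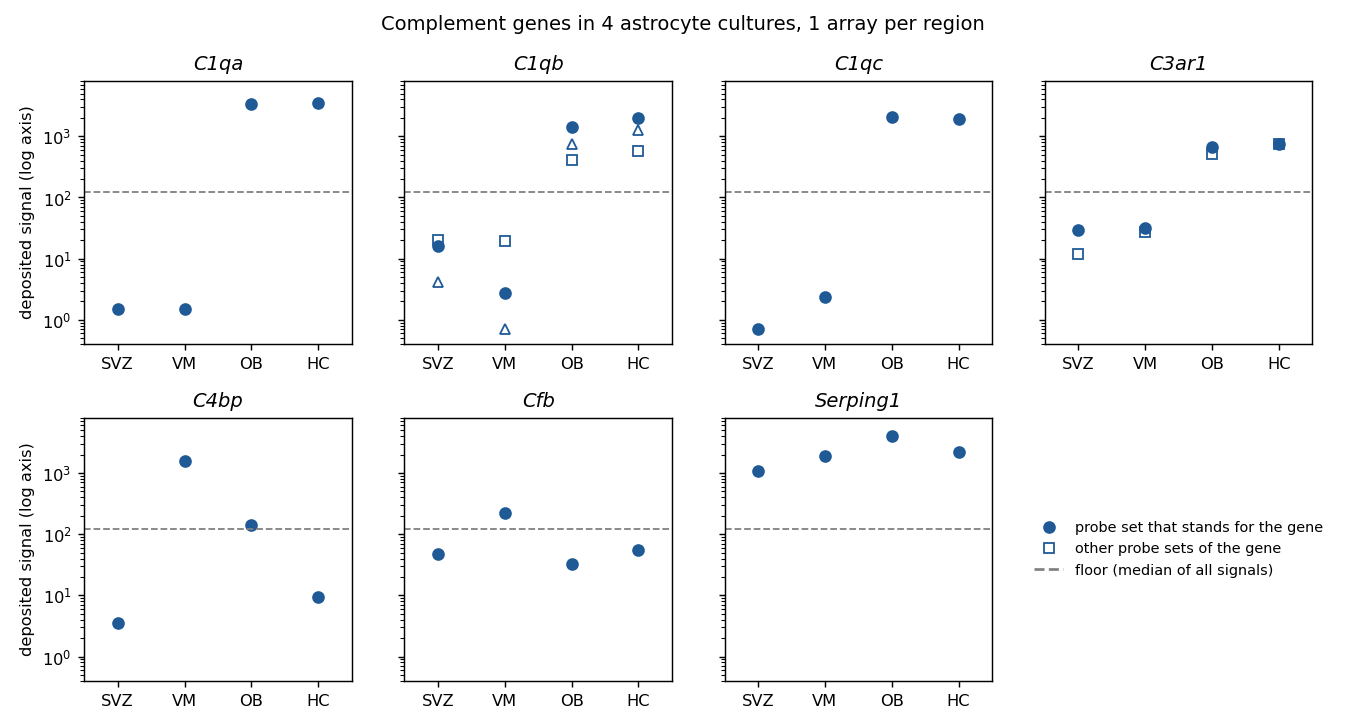
Deposited signal (log axis) of each probe set of the 7 measured complement genes in SVZ, VM, OB and hippocampus (HC) cultures, 1 array each; filled points are the probe set that stands for the gene, open points its other probe sets, and the dashed line is the floor of 122.1. C1qa, C1qb, C1qc and C3ar1 lie above the floor only in OB and HC, C4bp peaks in VM at 1579, and Serping1 is above the floor on all 4 arrays.

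The promoters of the genes with this shared arrangement are shown because C1qb, C1qc and C3ar1 were high and low in the same cultures, with C4bp, high in another culture, for contrast. RefSeq sequences (GRCm38.p6) were matched for 4 of the 7 measured members; C1qa, Cfb and Serping1 had no match. Each runs from 250 bases before to 50 bases after the annotated start, on the minus strand, at chr4:136886151-136886450 for C1qb, chr4:136892865-136893164 for C1qc, chr6:122856108-122856407 for C3ar1 and chr1:130661569-130661868 for C4bp. Capitals mark AGGAA on either strand, the core bound by PU.1, encoded by the myeloid gene Spi1, and by other ETS factors.
C1qb: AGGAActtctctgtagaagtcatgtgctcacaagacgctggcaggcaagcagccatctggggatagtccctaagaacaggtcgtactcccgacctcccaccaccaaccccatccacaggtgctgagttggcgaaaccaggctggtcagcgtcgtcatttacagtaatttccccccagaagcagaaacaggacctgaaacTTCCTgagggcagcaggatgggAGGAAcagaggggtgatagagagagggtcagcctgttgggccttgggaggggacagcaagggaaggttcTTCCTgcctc
C1qc: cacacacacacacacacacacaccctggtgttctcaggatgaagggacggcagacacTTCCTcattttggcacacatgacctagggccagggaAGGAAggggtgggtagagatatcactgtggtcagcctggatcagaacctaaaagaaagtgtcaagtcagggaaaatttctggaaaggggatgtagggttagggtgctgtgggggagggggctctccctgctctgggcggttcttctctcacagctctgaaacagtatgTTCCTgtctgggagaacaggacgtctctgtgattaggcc
C3ar1: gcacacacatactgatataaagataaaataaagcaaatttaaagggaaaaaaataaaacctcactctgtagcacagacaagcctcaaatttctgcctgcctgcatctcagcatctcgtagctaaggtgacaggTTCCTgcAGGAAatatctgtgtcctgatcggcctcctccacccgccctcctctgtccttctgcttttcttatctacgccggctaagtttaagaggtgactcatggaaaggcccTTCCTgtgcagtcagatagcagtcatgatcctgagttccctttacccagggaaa
C4bp: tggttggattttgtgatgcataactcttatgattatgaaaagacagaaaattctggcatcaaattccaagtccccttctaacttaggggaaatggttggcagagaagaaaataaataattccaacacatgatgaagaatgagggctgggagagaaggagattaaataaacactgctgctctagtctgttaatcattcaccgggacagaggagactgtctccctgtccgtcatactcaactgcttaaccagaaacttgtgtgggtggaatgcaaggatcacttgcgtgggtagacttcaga

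The core AGGAA occurred 4 times in the C1qb promoter, 3 times in that of C1qc, 3 times in that of C3ar1 and 0 times in that of C4bp. It is a common string: 66.7% of the 32851 promoters of this length held it at least once, with a median of 1 match. The share that held it 3 or more times was not counted, so the counts of 3 and 4 cannot be placed. The STAT site TTCNNNGAA was in 0 of the 4 and in 8.3% of all. The strings were chosen with the sequences in view, and a match describes letters only.

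Between OB and the hippocampus the C1q chains and C3ar1 differed little. The hippocampus signal was 1.06-fold that of OB for C1qa, 1.41-fold for C1qb, 0.93-fold for C1qc and 1.09-fold for C3ar1. By the representing probe sets, the differences of C1qa, C1qc and C3ar1 (log2 0.09, -0.10 and 0.13) were within the probe-set SD of 0.22. That of C1qb (log2 0.49) was over 2 such SDs, which leave out the spread between cultures. The other probe sets of C1qb gave 1.42-fold and 1.66-fold. That of C3ar1 gave 1.45-fold (log2 0.53), also over 2 such SDs, so its 2 probe sets differ on this point. C1qb was thus somewhat higher in the hippocampus by all 3 of its probe sets, under the 2-fold limit in each.

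Among the 14 microglia and macrophage markers with the same arrangement, the hippocampus-to-bulb fold ran from 0.61 for the receptor Trem2 to 2.47 for the lipopolysaccharide co-receptor Cd14, with a median of 1.19, a wider range than that of the 4 members. The fold of Cx3cr1, whose widest step lay elsewhere, was 2.6. Over all 115 genes of the arrangement the median was 1.20. The receptor gene Csf1r read 4073 in OB, 5099 in the hippocampus, 55.6 in SVZ and 90.9 in VM. Spi1 read 516, 614, 25.7 and 25.3 in that order of regions. Summed over the 15 named markers, the signal was 35223 in OB and 39445 in the hippocampus, against 1321 and 810 in SVZ and VM. In RNA of whole cultures, fewer cells of a type and less RNA per cell cannot be told apart, and the part of myeloid cells in the C1q signals was not tested.

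**Figure D2:**
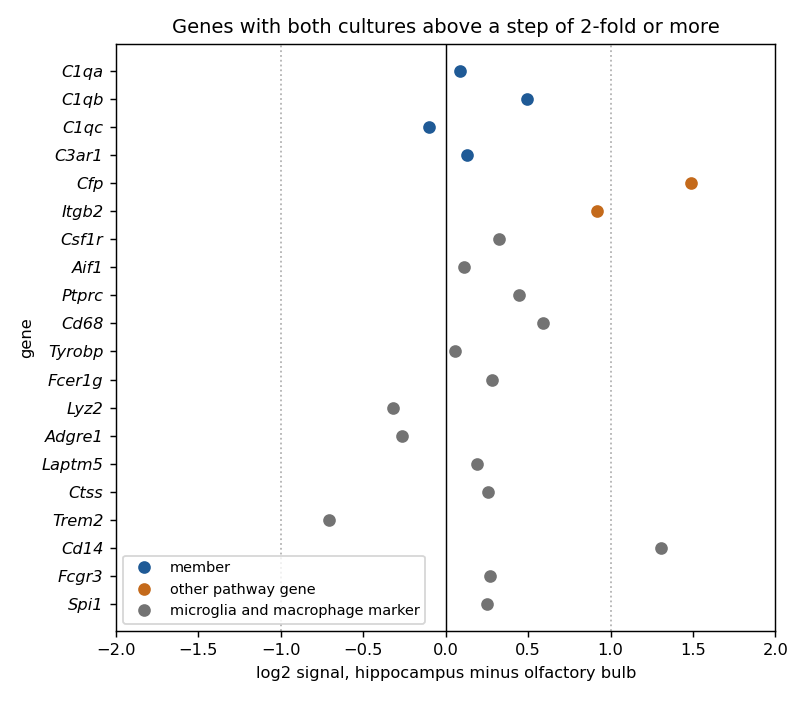
Log2 signal in the hippocampus minus that in OB (x axis) for complement members, other complement genes and microglia and macrophage markers (y axis), for genes with both cultures above a widest step of at least 2-fold; dotted lines mark 2-fold. The 4 members lie between -0.10 and 0.49, and Cfp stands at 1.49.

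The genes with the most similar profiles over the 4 arrays were named by the root mean square difference of centred log2 floored signals. The complement genes were left out. For the C1q chains and C3ar1, SVZ and VM both lie at the floor, so similarity rests mostly on OB and the hippocampus. For C1qa they were Tyrobp (0.10), Ctss (0.11) and Csf1r (0.22). For C1qb they were Lcp1 (0.13), Laptm5 (0.16) and Cd68 (0.23), and for C1qc Adgre1 (0.19), Ms4a7 (0.20) and Fcer1g (0.22). For C3ar1 they were Ptprc (0.15), Fcgr3 (0.17) and Spi1 (0.17). Of these 12 genes 10 are on the microglia and macrophage marker list. Of its 15 named genes 14 have the arrangement of the C1q chains, which 115 genes have in all. The count of 10 was thus partly set beforehand and is no separate evidence. The chains themselves differed by 0.24 (C1qb and C1qc) to 0.53 (C1qa and C1qb).

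The proteases that C1q carries were arranged the opposite way. C1s1, encoding C1s, read 1491 in SVZ and 1311 in VM, against 312 in OB and 388 in the hippocampus. C1ra, encoding C1r, read 1002 and 934 against 465 and 365. All 4 arrays were above the floor for both genes, with a step of 3.4-fold for C1s1 and 2.0-fold for C1ra. Over all genes above the floor, 1.31% had SVZ and VM above a widest step of at least 2-fold. After quantile normalization only C1s1 of the pair kept such a step. This arrangement was counted after the values were seen. Close paralogues of both genes, C1rb and C1s2, may contribute to these signals, which was not tested.

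Serping1, the inhibitor of these proteases, was above the floor in all 4 cultures and called in none. It read 4024 in OB, 2167 in the hippocampus, 1903 in VM and 1074 in SVZ. OB stood 3.7-fold above SVZ and 1.9-fold above the hippocampus. The hippocampus and VM, 1.1-fold apart, were within the probe-set SD of each other. Both stood above SVZ, by 2.0-fold and 1.8-fold. Its nearest profiles were those of Stat6 (0.07), Marveld1 (0.08) and Cebpa (0.09).

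Serping1 had its lowest and highest signals in the cultures where the summed fibroblast and meningeal list was lowest and highest. That list summed to 65365 in OB, 43497 in VM, 26993 in the hippocampus and 11787 in SVZ. The order of the hippocampus and VM was not shared. Single genes of the list differed. Of the 13, 6 were called lower in SVZ, and Ogn and Igf2 were called higher in OB. Lum was called higher in VM, Pdgfra in the hippocampus and Islr in SVZ, where Islr read 5941. The part of such cells in the Serping1 signal was not tested.

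C4bp, a soluble inhibitor usually made by the liver, was the 1 member called in a single region. It read 1579 in VM, 139 in OB, 9.3 in the hippocampus and 3.6 in SVZ. VM was 11.3-fold above OB and at least 12.9-fold above the others. The OB signal was just above the floor, and SVZ and hippocampus signals were below it. Over all genes above the floor, 1.57% were called higher in VM. The nearest profiles were those of the granzyme Gzme (0.11), the chemokine Cxcl5 (0.23) and the collagenase Mmp13 (0.24). C4bp has 1 probe set, so no other probe set bears on its signal.

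Cfb was above the floor in VM alone and at a low signal. It read 224 there, against 55.1 in the hippocampus, 48.0 in SVZ and 32.7 in OB. The difference was at least 1.8-fold and was not called. With the floor lowered to the 30th percentile of all signals, 25.2, the step was 2.02 (log2) and Cfb was called higher in VM beside C4bp. Its nearest profiles, Csf3, Ms4a4d and Slit3 (each 0.01), were other genes above the floor in that culture only, at signals of 221 to 226.

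Cfb and Serping1 are known as interferon-inducible genes, and the interferon response list was highest in VM. Of 10 named interferon response genes 7 were called higher there, and their summed signal was 30959, against 15077 in SVZ, 5009 in OB and 4212 in the hippocampus. Among 10 acute cytokine genes 3 were called higher there (Il6, Cxcl5 and Ptgs2), while Lcn2, Ccl2 and Nfkbia were highest in SVZ and Tnf was called higher in the hippocampus. That list summed to 56230 in VM, 45130 in SVZ, 18870 in the hippocampus and 5904 in OB. Serping1 was highest in OB and lowest in SVZ. Whether these programmes bear on C4bp, Cfb or Serping1 was not tested.

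**Figure D3:**
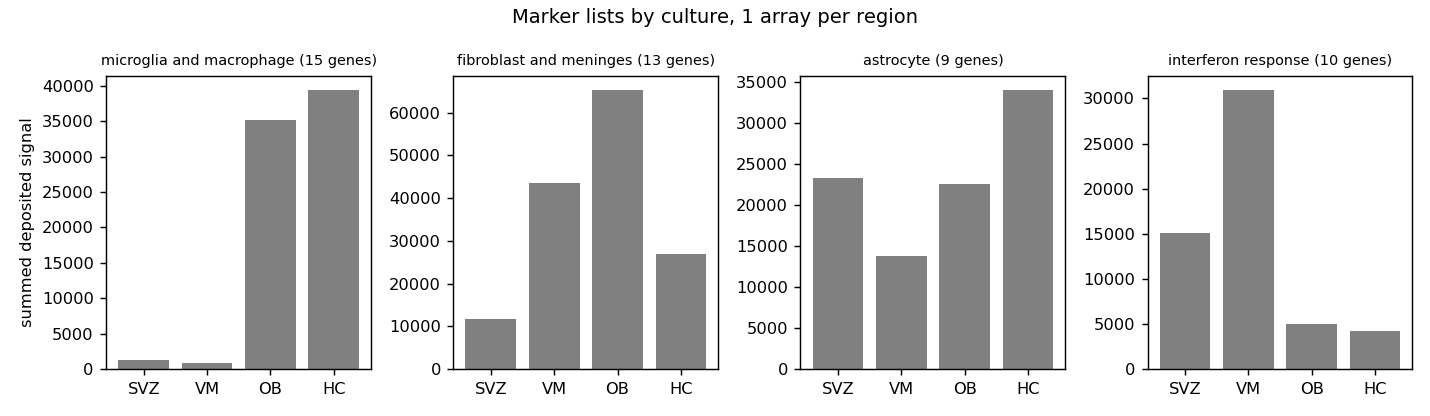
Summed deposited signal (y axis, from 0, with its own scale in each panel) of the named genes of 4 lists in SVZ, VM, OB and hippocampus (HC) cultures, 1 array each. The microglia and macrophage sum is 35223 in OB and 39445 in HC against 1321 in SVZ and 810 in VM, and the interferon sum is highest in VM at 30959.

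Of 51 further complement genes, 39 were named by a probe set of their own, 20 were above the floor on at least 1 array and 6 were called in a region. Of the 20, 0 were called in SVZ, where 1.28% of all genes were called higher and 1.01% lower. In VM 1 was higher and 1 lower (0.563% of all genes were lower). In OB 1 was higher (1.87% of all genes), and in the hippocampus 3 were higher (2.49% of all genes). Each gene's log2 signal was set against its mean in the remaining regions, and the median of these differences was -0.27 in SVZ, -0.34 in VM, 0.17 in OB and 0.19 in the hippocampus, beside medians of -0.02, -0.06, -0.02 and 0.01 over all genes above the floor. These counts rest on 20 genes and are given as a description.

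Among the activating proteases, the lectin pathway gene Masp1 was higher in VM. It read 1352 there, 341 in OB, 163 in the hippocampus and 119 in SVZ. The fold over OB was 4.0. A pair of further Masp1 probe sets, at 1125 and 286 in VM, also had that culture highest, and the remaining ones were below the floor on all arrays. C2, the substrate of C1s and MASP2, read 484 in OB, 347 in VM, 179 in the hippocampus and 40.2 in SVZ, and was not called. The collectin gene Colec12 was below the floor only in SVZ (22.9), with 243 to 415 elsewhere, and was not called. Masp2, the mannose-binding lectin genes Mbl1 and Mbl2 and the ficolin gene Fcna were below the floor on all arrays.

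In the alternative and terminal pathways few genes were above the floor. Properdin, Cfp, which stabilises the alternative convertase, read 1059 in the hippocampus, 377 in OB, 37.1 in SVZ and 4.5 in VM. It was called higher in the hippocampus, at 2.8-fold over OB, and shared the step of the C1q chains. Hc, encoding C5, read 278 in the hippocampus and 139 in SVZ and was below the floor elsewhere, a gap just under 2-fold that was not called. C8g exceeded the floor only in the hippocampus, at 123, while C6, C8a, C8b and C9 were below it on all arrays.

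The other regulators had orders of their own. Clusterin, Clu, which binds the terminal complex, was lower in VM, at 2477 against 5912 in OB, 7353 in SVZ and 8109 in the hippocampus. The fold to the next lowest culture was 2.4, and all 4 Clu probe sets had VM lowest. Vitronectin, Vtn, another terminal pathway inhibitor, was above the floor only in OB, at 1110 against 78.2, 25.5 and 5.0 in the hippocampus, VM and SVZ. It was at least 9.1-fold higher there, and its other probe set read 416 in OB and at most 19.3 elsewhere. Factor I, Cfi, read 449 in the hippocampus and 174 to 267 in the other regions, and was not called. The membrane inhibitors Cd59a (386 to 840) and Cr1l (301 to 683) were above the floor on all arrays and not called, while Cd55 and Cd46 were below it on all arrays.

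Of the 6 further receptor genes above the floor, C5ar1, Cd93, Itgb2 and Itgam were highest in the hippocampus. The C5a receptor C5ar1 read 440 in the hippocampus and 205 in OB, with 3.8 and 2.2 in SVZ and VM, and was called higher in the hippocampus at 2.1-fold. Cd93, once proposed as a C1q receptor, read 489, 194, 6.0 and 1.4 in those regions and was called at 2.5-fold; its other probe set was below the floor on all arrays. The C5ar1 call was lost after quantile normalization and the Cd93 call with the mean of all probe sets, while both were lost with the floor at the 70th percentile. Itgb2, the beta chain of the complement receptors for cleaved C3, read 1396, 739, 56.2 and 14.6. Itgb2 and Cfp were the 2 further complement genes that shared the step of the C1q chains. Itgam, its alpha-chain partner, exceeded the floor in the hippocampus alone (203) and was not called. The calreticulin gene Calr (5473 to 7057) and Lrp1 (871 to 1635) were above the floor on all arrays, and neither was called.

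The hippocampus-to-bulb fold was 1.9 for Itgb2, 2.1 for C5ar1, 2.5 for Cd93, 2.8 for Cfp and at least 1.7 for Itgam. Calr and Lrp1 were instead higher in OB, by 1.3-fold and 1.9-fold. For the C1q chains and C3ar1 the hippocampus-to-bulb fold was 0.93 to 1.41 by the representing probe sets. Other probe sets gave up to 1.66 for C1qb and 1.45 for C3ar1. Among myeloid markers, Cx3cr1 was called higher in the hippocampus at 2.6-fold and Cd14 at 2.5-fold, while Lyz2 (0.80), Adgre1 (0.83) and Trem2 (0.61) had folds under 1 and were not called. A call in the hippocampus requires at least 2-fold over OB, which C5ar1, Cd93, Cfp, Cx3cr1 and Cd14 therefore had by selection. Their contrast with uncalled genes was thus partly set by that rule. The difference between these folds was not tested.

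**Figure D4:**
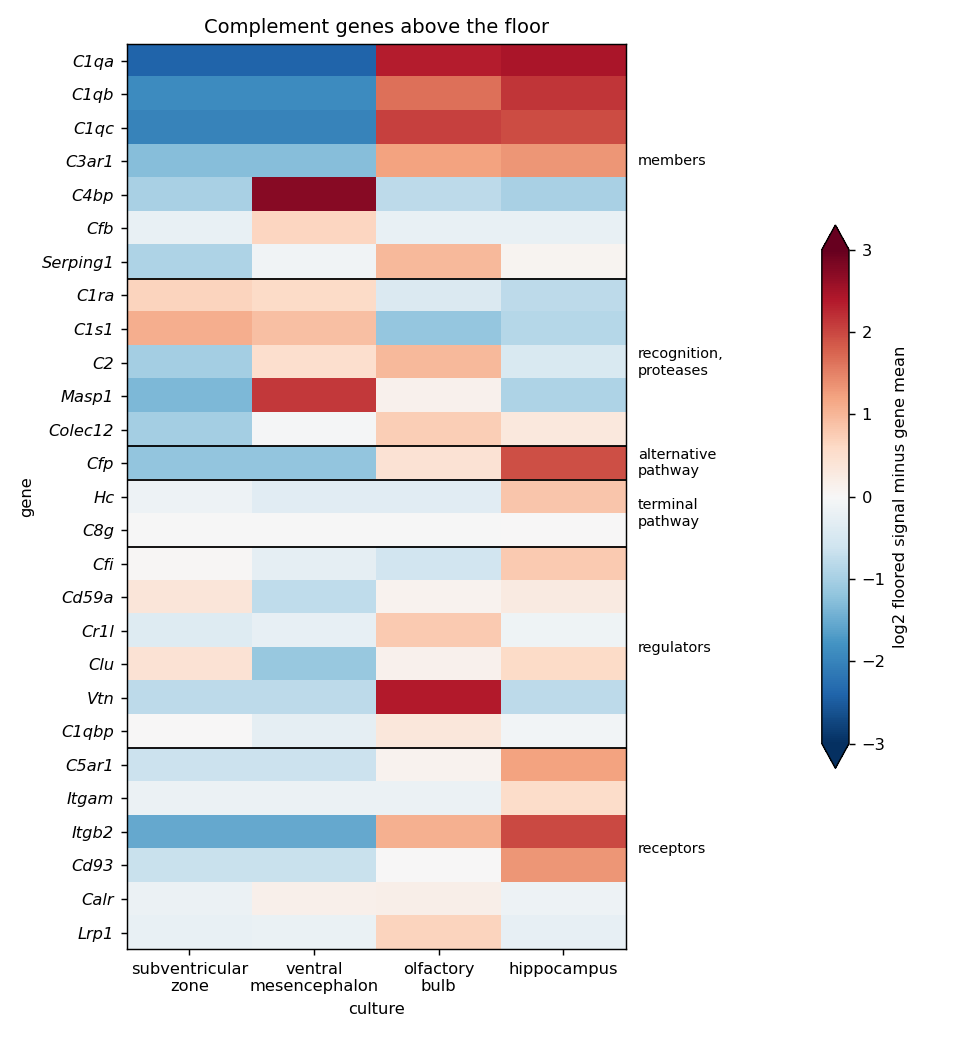
Log2 floored signal minus the gene's mean over the 4 arrays (colour) for the 27 complement genes that exceeded the floor on some array (rows, grouped by role) in each culture (columns). C1qa, C1qb, C1qc and C3ar1 are high in OB and hippocampus, C1ra and C1s1 in SVZ and VM, C4bp and Masp1 in VM and Vtn in OB.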

How the data were processed

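Total RNA (2 ug) of each culture was labelled with biotin and measured on 1 Affymetrix mouse array per region. Per the submitters' processing notes, the authors' deposited signal intensities were made with GCOS 1.4; no algorithm is named. They are on a linear scale, carry no detection calls, and were used unscaled. Global scaling makes each gene relative to its own culture's total. Gene names came from the platform annotation: 20380 probe sets had 1 gene, 691 several, 1555 none listed, and 64 were controls. Symbols were updated through a RefSeq gene table. Signals below the floor of 122.1 (50th percentile) were raised to it and log2 was taken (Python 3.11.15, pandas 2.3.3). A log2 difference of 1 made a call. The calling rules were tested on simulated data, with changes planted only in probe sets of strong signal and no floor applied. That test does not cover calls near the floor or the spread between cultures. All 7 measured members are named, with further complement genes that were called or needed for a role, and the 3 nearest profiles of each member. Members, lists and markers were chosen with earlier results of these data known. Alternatives were other floors, quantile normalization, the mean over probe sets, thresholds of 1.5-fold and 3-fold, and leaving out each array. The number of arrays limits the precision.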

Additional observations from a re-analysis of the deposited data

How the results depend on the processing

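No paired analysis was possible because each region has 1 array. The 4 members with OB and hippocampus above the step were the same 4 with the floor at the 30th percentile, after quantile normalization and with the mean of all probe sets; with the floor at the 70th percentile C3ar1 had a step of 0.91 (log2). C4bp was called higher in VM under all 6 other settings. Cfb was below the 70th percentile on all arrays and gave no value there, and after quantile normalization the widest step of Serping1 (0.82) set SVZ below the others.

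With the floor at the 30th percentile 2 members were higher in VM (C4bp and Cfb), as with a threshold of 1.5-fold, and 3 further complement genes were lower in SVZ and 2 in VM. With the floor at the 70th percentile 1 further gene was higher in the hippocampus. After quantile normalization 2 were higher in OB, 1 was lower in SVZ, and 1 had the step of C1s1; that count was also 1 at 3-fold. At 1.5-fold, 1 member (Serping1) was higher in OB and lower in SVZ, and of the further genes 7 were higher in the hippocampus, 3 higher in OB, 1 lower in SVZ and 2 lower in VM. At 3-fold 0 were higher in the hippocampus and 0 lower in VM. The share of all genes called under each of these settings is not given. The counts therefore show only how the calls moved, and cannot be set against a background.

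Leaving out 1 array at a time changes which regions a gene is compared with. Here too no share of all genes stands beside the counts, so they describe the calls only. Members called higher then numbered 0 to 4 in the hippocampus (4 without OB: C1qa, C1qb, C1qc, C3ar1) and 0 to 5 in OB (5 without the hippocampus, with Serping1), and called lower 0 to 5 in SVZ (5 without VM) and 0 to 4 in VM (4 without SVZ). Further genes called higher numbered 3 to 5 in the hippocampus (5 without SVZ), 1 to 4 in OB (4 without the hippocampus), 0 to 2 in SVZ (2 without VM) and 1 to 3 in VM (3 without SVZ), and called lower 0 to 2 in the hippocampus (2 without OB), 0 to 2 in OB (2 without the hippocampus), 0 to 3 in SVZ (3 without VM) and 1 to 3 in VM (3 without SVZ).

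The spread between cultures of a region was not measured, which limits differences of any size.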
